A study of Danio rerio with 4 samples.

Results

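Often-open peaks are the stretches of chromatin that were called open in at least 10% of the nuclei of zebrafish non-cardiomyocytes (nonCMs), the cells of the heart other than its muscle cells. With 2737 nuclei in the matrix a peak had to be open in 274 or more, and 2647 of 50394 peaks (5.25%) were. They were set against the 26485 peaks open in 1 to 10% of nuclei, and another 21262 peaks were open in under 1%. The nuclei came from the hearts of adult wild type fish, uninjured (0 days post amputation, dpa) or 2, 7 and 14 days after part of the ventricular apex was cut off, and each time point gave 1 single-cell ATAC-seq (scATAC-seq) library. No name in the matrix tied a nucleus to its library, so 0 of the 4 samples could be mapped, all nuclei were pooled, and no comparison between time points and no statistical test was possible. Whether the nuclei carry nonCM markers was not checked, because no gene positions of the build of the matrix were at hand.

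In scATAC-seq a transposase inserts sequencing adapters where DNA is not wrapped tightly, and the barcode of a droplet marks the nucleus a fragment came from. A diploid nucleus has few copies of any site to cut, so each nucleus yields a sparse list of open peaks, and a peak missing from the list may be closed or may only have been missed. Peaks shared by many cell types often lie at promoters, whereas peaks of distal enhancers tend to differ between cell types. Whether the often-open peaks lie at promoters was not tested.

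The often-open peaks held 30.8% of the 3742096 open calls, against 60.6% in the peaks open in 1 to 10% of nuclei and 8.54% in the rest. Their open share was what chose them and is given as a description. It had a median of 14.0%, with quartiles of 11.7% and 18.2%, and most lay near the limit, as 1520 were open in 10 to 15% of nuclei, 638 in 15 to 20%, 386 in 20 to 30%, 86 in 30 to 40%, 16 in 40 to 50% and 1 in more. Even so, any 1 nucleus showed few of them. The median nucleus had 392 often-open peaks open, which is 14.8% of the set, with a range of 12 to 1851, and 0 nuclei had none. The share of a nucleus's open calls that fell in often-open peaks had a median of 31.0%, with 5th and 95th percentiles of 21.9% and 46.6%. Depth, taken as the number of open peaks per nucleus, had a median of 1147 with a range of 77 to 10959. There was no step at the limit. The peaks just inside it, at 274 nuclei (10.0%), were chr23:23042678-23043398, chr25:18497117-18497826 and chr25:29079768-29080425, and those just outside, at 273 nuclei (9.97%), were chr1:46649924-46650448, chr2:56094840-56095591 and chr2:58200861-58201554. Coordinates are given as in the matrix, for the danRer11 build named in the labels.

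The most open peak was chr12:22559697-22560702, 1005 bp wide, which was open in 1665 nuclei (60.8%, exact Clopper-Pearson 95% interval 59.0 to 62.7%, covering counting error only). It was the only peak open in most nuclei. The next was chr14:31565864-31567672, at 1808 bp among the widest, open in 48.2% of nuclei. The other 8 of the 10 most open peaks were chr13:13944510-13945499 and chr25:6389851-6390699, each open in 47.7%, chr20:28266630-28267623 in 47.1%, chr5:67660569-67661687 in 46.5%, chr3:45687035-45687936 in 45.9%, chr7:51249170-51250112 in 44.1%, chr17:11418445-11419455 in 42.7% and chr19:24487972-24488694 in 41.8%. They lay on 10 different chromosomes.

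The order of the rows split them into 4 runs, a new run starting where a barcode sorts before that of the previous row. What the runs stand for is not stated, and no run was taken as a time point. They held 430, 715, 748 and 844 nuclei, and run 4 was the shallowest, with median depths of 1382.5, 1294, 1230 and 898.5 open peaks in runs 1 to 4. Every often-open peak had open calls in all 4 runs. In runs 1 to 4, 2456 (92.8%), 2530 (95.6%), 2609 (98.6%) and 1603 (60.6%) of them reached 10% of the run's own nuclei, and 1515 (57.2%) did so in all 4. The peaks were chosen by their share over the same nuclei, so these counts follow in part from the rule. Peaks outside the set also reached 10% of a run, 1453, 456, 796 and 4 of them in runs 1 to 4. The mean open share of the set was 17.9%, 16.5%, 18.2% and 12.5% in the 4 runs, so the low value lay in the shallowest run. When every nucleus was thinned to 500 open calls, which left out 13, 26, 14 and 78 nuclei of runs 1 to 4 that had fewer, the mean share was 5.98%, 5.93%, 6.36% and 6.47%, and run 4 was no longer the lowest. At a fixed number of calls this mean only restates the share of calls that lay in the set, 31.6%, 31.4%, 33.7% and 34.2%. It is therefore no separate measure of openness.

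To compare runs at unequal depth, the open calls of a peak in a run were divided by the run's open calls outside the often-open set, and the result is given relative to the same ratio over all nuclei as a relative rate. Unevenness was measured by the excess squared variation of this rate between runs, an index that is near 0 when a peak varies no more than counting error allows. For the often-open peaks its median was 0.00878 (quartiles 0.00097 and 0.0219), against 0.0285 (-0.0056 and 0.0980) for the peaks open in 1 to 10%. The median was lower for the often-open peaks on 25 of 25 chromosomes. An index over 0.1 was found for 72 often-open peaks (2.72%) and for 6512 of the other set (24.6%). The index takes off counting error only on average, and it scatters more in peaks with fewer calls. The median number of calls was 64 in the 1 to 10% peaks and 383 in the often-open peaks. Counting error alone thus passes this cut more often in the 1 to 10% set, and how often was not tested. The distance between the sets depended on the runs and was narrowest without run 1. The medians were 0.00491 and 0.00658 for the often-open peaks and the 1 to 10% peaks without run 1, 0.00397 and 0.0218 without run 4, and 0.0111 and 0.0343 without run 3.

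The fold between the highest and the lowest run told the same order of the sets, though it includes counting error. It had a median of 1.40 in often-open peaks and 2.15 in peaks open in 1 to 10%. It was over 1.5 in 941 often-open peaks (35.5%), against 22052 (83.3%) of the 1 to 10% peaks and a background of 78.9% over both sets. It was over 2 in 203 (7.67%) against 14888 (56.2%), with a background of 51.8%. Counting error is larger in the second set, whose peaks had a median of 64 open calls, against 383 in often-open peaks, and 351 of its peaks had a run with no call at all, against 0 often-open peaks. The rule also bears on both measures, since a peak that is open in 1 small fraction of nuclei only cannot reach 10% of all of them.

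The run with the highest relative rate differed between peaks, but for most often-open peaks it was run 4. Of the 2647 often-open peaks, it was run 4 for 1548, run 1 for 653, run 3 for 300 and run 2 for 146. Of the 26485 peaks open in 1 to 10%, it was run 1 for 8267, run 4 for 7240, run 2 for 6037 and run 3 for 4941. The sets differ in size, so each count is to be read against its own total. The median rate in run 4 was 1.12 for often-open and 0.985 for 1 to 10% peaks. By this rate the often-open peaks thus lay higher in run 4 as a set, and the reason was not tested. The divisor of the rate leaves out the calls in the set. These were 33.1% of the calls of run 4, against 30.4%, 29.4% and 30.8% in runs 1 to 3. All of the 10 most open peaks had their highest relative rate in run 4, although their plain open share was lowest there. In the most open peak, chr12:22559697-22560702, 64.7%, 60.7%, 66.0% and 54.4% of nuclei were open in runs 1 to 4, while the relative rates were 0.925, 0.899, 0.951 and 1.27. In chr14:31565864-31567672 the shares were 49.1%, 47.3%, 57.1% and 40.5%, and the relative rates 0.887, 0.884, 1.04 and 1.19. So the order of the runs for these peaks turns on whether plain shares or relative rates are read. A peak is called open at most once in a nucleus, which holds down the relative rate of widely open peaks in deeper runs. How far this makes run 4 the highest was not tested. Run 4 had the lowest median number of open calls outside the set, 571.5, against 975, 882 and 799 in runs 1 to 3.

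**Figure D1:**
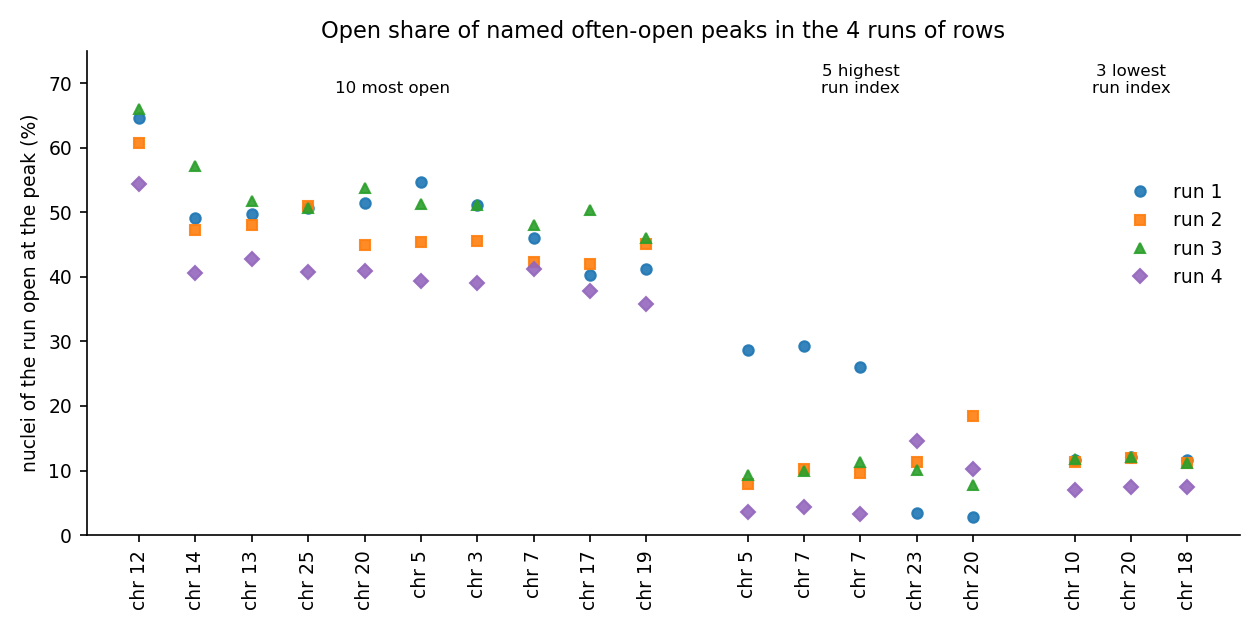
Share of nuclei open (%, vertical axis) in each of the 4 runs of rows, marked by colour and shape, at named often-open peaks (horizontal axis, labelled by chromosome) in 3 sets: the 10 most open, the 5 with the highest and the 3 with the lowest run index. In the most open peak the 4 runs lie between 54.4% and 66.0%, while the first of the uneven peaks spans 3.55% to 28.6%.

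A small number of often-open peaks were far from even. The highest index, 0.454, belonged to chr5:24845392-24846113, open in 123 of 430 nuclei of run 1 (28.6%) but in 57 (7.97%), 70 (9.36%) and 30 (3.55%) of those of runs 2, 3 and 4. In chr7:35529474-35530123 the shares were 29.3%, 10.2%, 9.89% and 4.38%. In chr7:37237393-37237964 the shares were 26.0%, 9.65%, 11.4% and 3.32%. Each of these 3 peaks was open most often in run 1 and least often in run 4. The remaining pair of the 5 most uneven peaks was low in run 1. At chr23:43613229-43613686, 3.49% of nuclei were open in run 1, and 11.3%, 10.2% and 14.6% in runs 2 to 4. At chr20:16884613-16885566, 2.79% were open in run 1, and 18.5%, 7.75% and 10.3% in runs 2 to 4. The lowest indices were those of chr10:28201882-28202232 (-0.0106), chr20:3086354-3087421 (-0.0103) and chr18:46258520-46258873 (-0.0101). The first of these had shares of 11.6%, 11.3%, 11.8% and 6.99%, and relative rates between 0.976 and 1.01.

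Evenness changed gradually with openness rather than at the 10% limit. In peaks open in 1 to 2%, 2 to 5% and 5 to 10% of nuclei the median run index was 0.0413, 0.0291 and 0.0165. It was 0.0105 at 10 to 15%, 0.00657 at 15 to 20%, 0.00807 at 20 to 30% and 0.00936 above 30%, so that the values no longer fell beyond 15 to 20%.

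**Figure D2:**
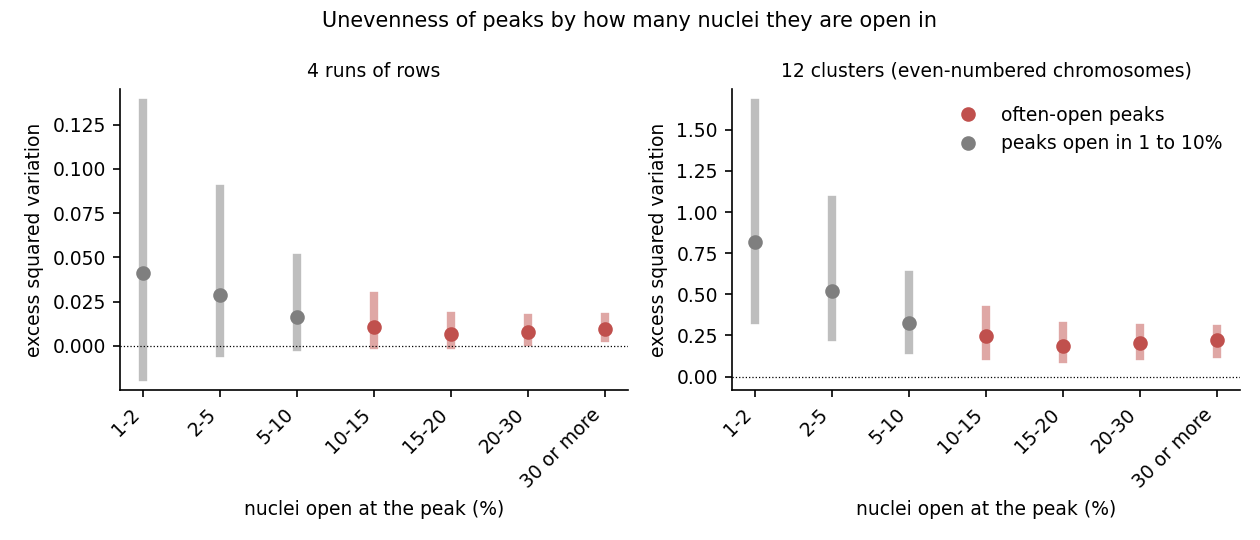
Excess squared variation (vertical axis, no unit) over the 4 runs of rows on the left and over 12 clusters of nuclei on the right, by the share of nuclei a peak is open in (horizontal axis, %). Counting error alone gives a mean of 0, and the median need not be 0. Points are medians over peaks and bars run between the quartiles, with often-open peaks in red and peaks open in 1 to 10% in grey. The medians for the runs fall to 0.00657 at 15 to 20% and do not fall further.

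Often-open peaks gained less from depth than other peaks did. Nuclei were put in 4 depth classes of equal size, class 1 the shallowest and class 4 the deepest, by depth counted here outside the often-open set so that these peaks did not rank their own nuclei. The 1 to 10% peaks hold most of the calls that define this depth, so their values follow it in part by construction. From class 1 to class 4 the median depth was 404, 623.5, 922 and 1580 open peaks, and the mean open share of the often-open peaks was 9.66%, 13.7%, 15.7% and 24.7%. For the 1 to 10% peaks it was 1.33%, 2.13%, 3.13% and 5.93%. The deepest class thus had 2.56 times the share of the shallowest in often-open peaks (SD 0.156 over 25 chromosomes) and 4.47 times in the others (SD 0.298), with a depth ratio of 4.63. The chromosome values did not overlap, at 2.29 to 2.91 against 4.11 to 5.28. They come from the same nuclei, so their spread leaves out variation between nuclei. With depth taken from odd-numbered chromosomes and peaks measured on even-numbered ones, the ratios were 2.46 and 4.36, with a depth ratio of 4.69. No measured peak then ranked its own nuclei, but other peaks of the 1 to 10% set still took part in that depth. With depth over all peaks, often-open ones included, the ratios were 2.93 and 4.43. A peak is called open at most once in a nucleus, which bounds the ratio from above for peaks with a high share. A model in which each peak fills up with depth at its own rate gave 3.87 for the often-open peaks, and the measured 2.56 lay below that. The model takes all nuclei as alike but for depth, while the depth classes differed in their mix of nuclei, as given below for clusters. How far this mix accounts for the distance from the model was not tested. The often-open peaks held 39.4%, 36.6%, 30.7% and 26.4% of the open calls of the 4 classes. The calls that rank the nuclei are also part of the denominator of this share, so it falls in part by construction. Of the 2647 peaks, 1032 (39.0%), 1813 (68.5%), 2370 (89.5%) and 2626 (99.2%) reached 10% of the nuclei in the classes from shallow to deep. The rule chose them by their share over all classes together, so these counts follow from it in part.

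Runs and depth were not independent, since 352 of the 685 nuclei in the shallowest class and 73 of the 684 in the deepest were of run 4. Within runs 1 to 4 taken alone the ratio for often-open peaks was 2.83, 2.30, 2.25 and 2.31, beside depth ratios of 4.31, 4.63, 4.67 and 3.46. Over the bands of openness, from 1 to 2% up to 30% and more, the ratio was 5.93, 4.83, 3.66, 2.96, 2.60, 2.19 and 1.76.

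Single peaks departed from this in both directions. The ratio ranged from 1.41 to 11.1 between the 5th and the 95th percentile of the often-open peaks, was above the depth ratio for 548 (20.7%), and was below 1 for 38 (1.44%). For the 1 to 10% peaks the range was 1.34 to 15.7, with 16041 (60.6%) above the depth ratio and 730 (2.76%) below 1. As a set these peaks had a ratio of 4.47, with a median of 5.67 over single peaks, and they hold most of the calls that define the depth. Lying above the depth ratio is thus no departure for them. They also have fewer calls per peak, so counting error widens their range and adds values below 1. How far it does so was not tested. In that set 6250 peaks had under 3 calls in class 1, which were counted as 3. Among often-open peaks the ratio was highest at chr21:16231265-16232209, open in 0.730%, 4.09%, 13.2% and 22.2% of nuclei from class 1 to class 4. Close to it came chr25:33994299-33994993, with 1.02%, 5.56%, 15.4% and 29.5%, and chr21:42983393-42984054, with 1.02%, 5.12%, 13.7% and 27.3%. In class 1 these 3 peaks were open in only 5, 7 and 7 of 685 nuclei. They were picked as the largest ratios in the set, so the values carry a large counting error. The opposite held at chr5:9338188-9338869, where 15.3%, 15.9%, 5.85% and 3.36% of nuclei were open from shallow to deep. It also held at chr10:17484399-17485197, with 19.3%, 19.6%, 7.75% and 4.68%, and at chr24:39039129-39039933, with 17.2%, 16.2%, 8.19% and 4.24%. These were least open in the deepest nuclei.

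**Figure D3:**
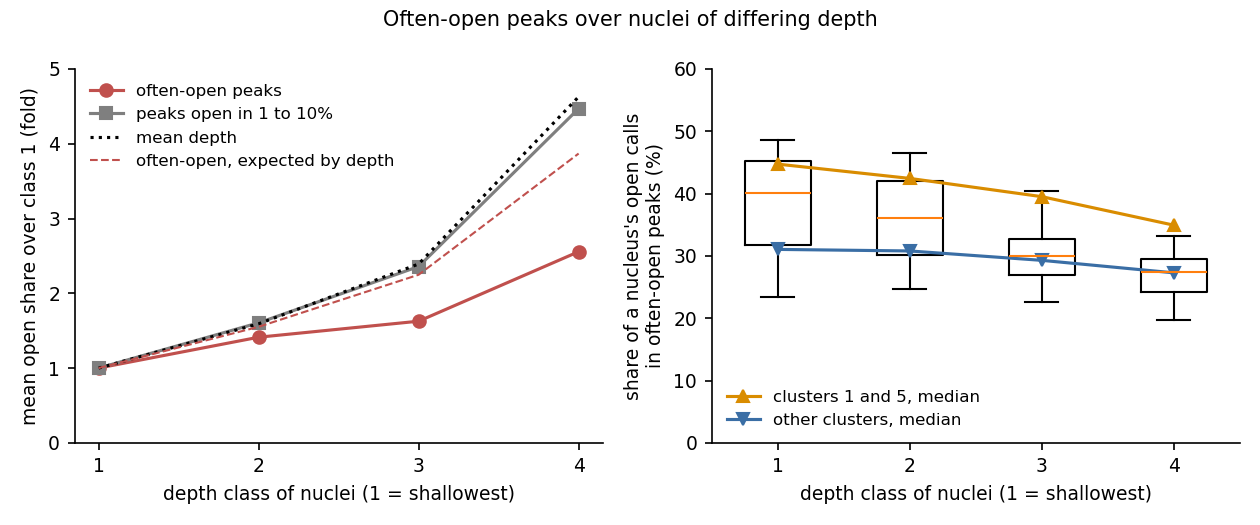
Left, mean open share relative to the shallowest depth class (fold, vertical axis) over depth classes of nuclei (horizontal axis) for often-open peaks, peaks open in 1 to 10%, the mean depth and the share expected by depth. Right, share of a nucleus's open calls in often-open peaks (%) by depth class, where boxes give the quartiles and median, whiskers the 5th and 95th percentiles, and coloured lines the medians in clusters 1 and 5 and in the other clusters. Often-open peaks reach 2.56 times their starting share while the 1 to 10% peaks reach 4.47 times.

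To see whether often-open peaks were open in all kinds of nuclei, the nuclei were clustered on the 14432 peaks of odd-numbered chromosomes that were open in 1 to 10%, and peaks were measured on the even-numbered chromosomes. The measured peaks thus took no part in the clustering. Shares and numbers of calls per nucleus used all chromosomes, and some peaks named below lie on odd-numbered ones. Those values lack this separation, although no often-open peak took part in the clustering. The 12 clusters, numbered from the largest (521 nuclei) to the smallest (51), carry no cell type name. Clusters 1 and 5 stood apart. Their nuclei had medians of 43.5% and 43.1% of open calls in often-open peaks, against 22.6 to 34.7% in the other 10 clusters. This went with fewer calls elsewhere. Nuclei of clusters 1 and 5 had a mean of 413 often-open peaks open and 566 other peaks, whereas nuclei of the other clusters had 425 often-open and 1097 other peaks. The mean share of the even-numbered often-open peaks was accordingly 16.4% in clusters 1 and 5 and 16.2% in the others, while that of the 1 to 10% peaks was 2.00% and 3.58%. The runs differed in this. In run 1 the mean number of often-open peaks per nucleus was 380 in clusters 1 and 5 and 491 in the others, in run 2 it was 397 and 448, in run 3 it was 465 and 490, and in run 4 it was 382 and 305. Fewer calls outside the set were found in clusters 1 and 5 in all 4 runs, for example 516 against 742 in run 4.

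Clusters 1 and 5 held 782 nuclei (28.6%), and they were unequally spread over depth and runs. They made up 54.9%, 44.4%, 11.99% and 2.92% of the depth classes from shallow to deep, and 15.3%, 22.9%, 36.2% and 33.3% of runs 1 to 4. Within cluster 1 the share of calls in often-open peaks was 43.1%, 43.3%, 42.7% and 42.8% in runs 1 to 4, and within cluster 5 it was 39.8%, 38.7%, 39.7% and 42.0%. In clusters 3 and 5 the runs lay farther apart than in cluster 1, with 27.0%, 24.4%, 23.6% and 25.7% in cluster 3. Without both clusters, the ratio of the deepest to the shallowest class in often-open peaks was 3.39, against 2.56 with them. Within clusters, the shallowest 25% of the nuclei had a higher share of calls in often-open peaks than the deepest 25% in 11 of 12 clusters, by a median of 3.52 percentage points, although the calls that set this depth are also part of the denominator of the share. The exception was cluster 7, with 33.6% in its shallowest and 35.6% in its deepest nuclei.

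**Figure D4:**
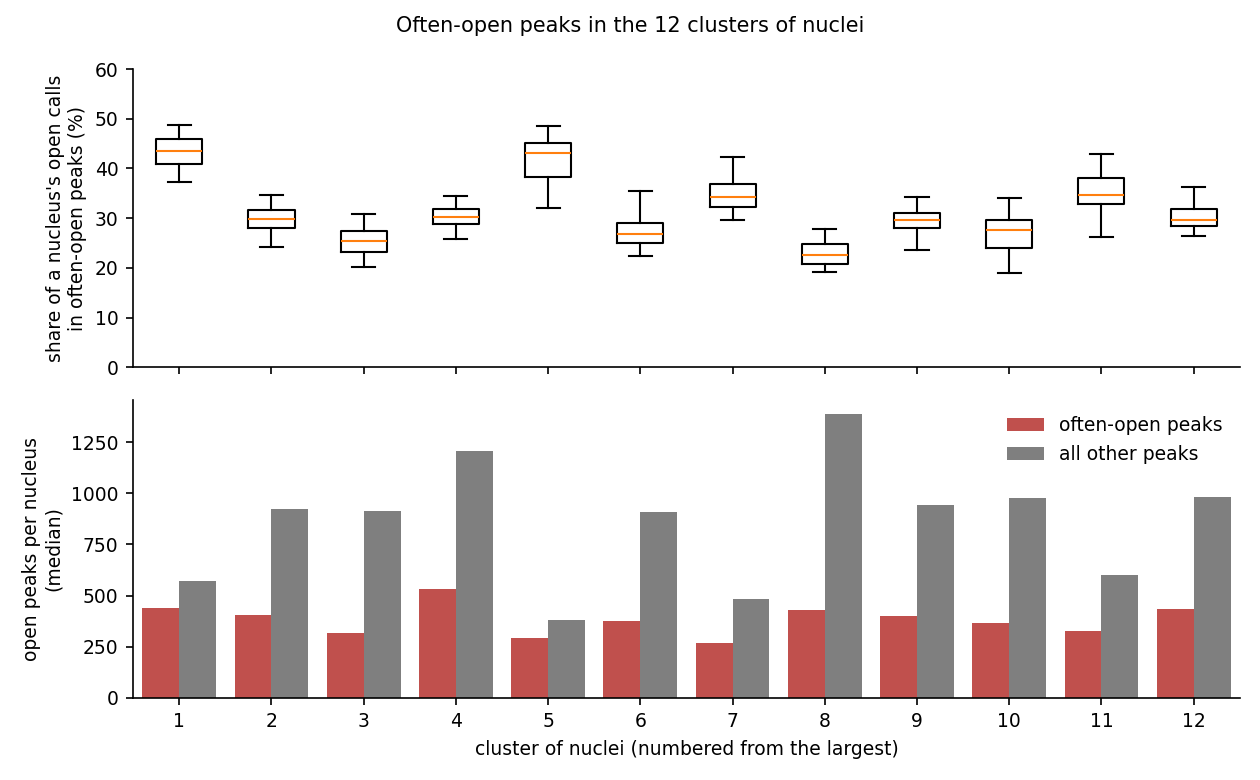
Top, share of a nucleus's open calls in often-open peaks (%, vertical axis) in each of 12 clusters of nuclei (horizontal axis), with boxes for the quartiles and median and whiskers for the 5th and 95th percentiles. Bottom, median number of open peaks per nucleus in the often-open set and outside it. Clusters 1 and 5 have the highest shares, 43.5% and 43.1%, and medians of 441 and 290 often-open peaks beside only 571 and 380 other peaks.

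Over the clusters the often-open peaks had a lower index than the others. The clusters were formed on other peaks open in 1 to 10%, so that set follows them in part by construction. The 10% rule also keeps out peaks that are open only in 1 small cluster. Clusters separate nuclei by their open peaks and runs follow the order of rows, so the index over clusters cannot be set against that over runs. The median cluster index was 0.220 (quartiles 0.121 and 0.353) for 1197 often-open peaks and 0.560 (0.243 and 1.19) for 12053 peaks open in 1 to 10%, and it was lower for the often-open peaks on 12 of 12 even-numbered chromosomes. The value for often-open peaks depended on how clusters were weighted. It was 0.0780 when clusters were weighted by nuclei and 0.0574 when weighted by their calls in often-open peaks of odd-numbered chromosomes, against 0.7997 and 0.683 for the 1 to 10% peaks. In plain open shares, 304 often-open peaks (25.4%) were open in at least 10% of the nuclei of every cluster, a share that peaks open in under 10% of all nuclei cannot reach in every cluster. In 366 (30.6%) the highest cluster had over 5 times the share of the lowest, against 11034 (91.5%) of the others. At least 1 cluster had no call for 60 often-open peaks and for 8659 of the others. Both counts include counting error, which is larger in the less open set, and in the smallest cluster of 51 nuclei a count of 0 allows up to 5.88% of its nuclei. The calls relative to those outside the set were highest in cluster 1 for 590 of the 1197 peaks (49.3%) and in cluster 5 for 169 (14.1%). The divisor is low in these clusters, with a mean of 566 calls outside the set per nucleus, against 1097 in the others. In clusters 1 and 5 the relative rate was above that in the other clusters for 79.3% of the often-open peaks. The plain open share was above it for 57.4%. For the 1 to 10% peaks these values were 33.2% and 22.6%.

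The most uneven peaks over clusters were largely peaks of cluster 1. Clusters are named here by where the relative rate of a peak, its calls over the calls outside the set, was highest and lowest. At chr10:17484399-17485197, which also was more open in shallow nuclei, 44.3% of the nuclei of cluster 1 were open, and 0 of 112 in cluster 9, where a count of 0 allows up to 2.68%. Its index was 3.46. At chr24:39039129-39039933, also more open in shallow nuclei, the share was 36.7% in cluster 1 and 0.893% in cluster 9. At chr6:60018390-60019182 it was 40.3% in cluster 1 and 1.45% in cluster 3, and at chr8:4016823-4017584 it was 33.6% and 0.867% in the same clusters. The remaining one, chr22:5119908-5120721, had its highest rate in cluster 5 with 33.3% of nuclei open, and had 0.867% in cluster 3. All 5 were thus open in over 30% of 1 cluster and in under 2% of another. The peaks that were uneven over runs, most of them on odd-numbered chromosomes, had their highest rates in other clusters. Of these, chr5:24845392-24846113, chr7:35529474-35530123 and chr7:37237393-37237964 had theirs in cluster 4, with 41.3%, 50.3% and 46.6% of its nuclei, and chr20:16884613-16885566 in cluster 6 with 52.4%. Cluster 4 took 29.8% of run 1 and 4.62% of run 4, and cluster 6 took 0.465% of run 1 and 13.4% of run 2. By contrast chr23:43613229-43613686, which also differed between runs, had relative rates between 0.649 in cluster 4 and 1.88 in cluster 11, where 9.94% and 13.9% of nuclei were open.

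At the other end, chr10:22831514-22832219 had an index of -0.0112 over clusters, with relative rates between 0.811 and 1.20 in all 12, and was open in 6.57%, 8.33%, 16.1% and 22.95% of nuclei from class 1 to class 4. A second peak of the same chromosome, chr10:2682046-2682688, also had an index of -0.0112, and chr18:27001005-27001480 had -0.00428. Their open shares in the deepest class were 4.79 and 6.53 times those in the shallowest, beside a depth ratio of 4.63.

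Often-open peaks lay nearer to the next often-open peak than the 1 to 10% peaks did, while their distance to peaks in general had no settled direction. The median distance to the nearest peak of any kind was 4798 bp for often-open peaks and 4692 bp for peaks open in 1 to 10%, and it was shorter for the often-open peaks on only 10 of 25 chromosomes. Counting only neighbours open in at least 1% of nuclei, it was 5439 bp against 6821 bp, and with the limit at 5% it was 4582 bp against 4752 bp, so the direction turned. The nearest other often-open peak lay at a median of 76582 bp from an often-open peak and 119520 bp from a 1 to 10% peak, shorter on 21 of 25 chromosomes. An often-open peak within 10 kb was found for 16.5% and 9.57% of the 2 sets. Over chromosomes this share was 16.04 ± 4.78% for often-open peaks and 9.57 ± 1.85% for the others (SD, n = 25), and it was higher for the often-open peaks on 23 of 25. Among peaks 500 to 800 bp wide the shares were 15.3% and 6.35%. At 1, 5 and 50 kb they were 4.42%, 11.1% and 41.3% for often-open peaks, against 1.597%, 5.18% and 30.7%.

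Most often-open peaks still stood alone. In order along the chromosomes, 2147 had no often-open neighbour on either side, 215 stretches held 2, 22 held 3 and 1 held 4. An often-open peak was next to 500 of them (18.9%), against 11.7% of the 1 to 10% peaks. The 262 neighbouring pairs in which both peaks were often open had a median gap of 4724 bp, and 21.8% had a gap of 1 kb or less. Neighbouring pairs of 1 to 10% peaks had a median gap of 7515.5 bp, and 10.4% had a gap of 1 kb or less.

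The closest pair, 131 bp apart, was chr16:11150652-11151441 and chr16:11151572-11151974, open in 34.3% and 25.9% of nuclei. These are 2 separate columns of the matrix, and whether they are 1 open region split by the peak caller was not tested. The stretch of 4 lay on chromosome 7 and was made up of chr7:21751992-21752451 (19.04% of nuclei), chr7:21755899-21756625 (14.4%), chr7:21757143-21757597 (11.4%) and chr7:21759876-21760418 (11.5%). Its members did not behave alike. Its 2 middle peaks were open in 1.15% and 0.768% of the nuclei of cluster 1, their lowest relative rate, while the outer peaks had theirs in clusters 8 and 3, at 16.9% and 7.51%. The most isolated often-open peak was chr5:53581096-53581789, 243005 bp from the nearest peak of any kind and open in 16.4% of nuclei. The one farthest from any other often-open peak was chr9:46072666-46073305, at 4720921 bp and open in 16.5%.

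Pairs of often-open peaks were open in the same nucleus slightly more often when close. Relative to the number expected from each peak's rate and the depth of each nucleus, the number of nuclei open at both was 1.09 for pairs within 1 kb, 1.09 at 1 to 5 kb, 1.08 at 5 to 20 kb, 1.01 at 20 to 100 kb and 0.948 at 100 kb to 1 Mb, beside 0.932 for pairs on different chromosomes. The first of these rests on 60 pairs. In peaks of 500 to 800 bp, it was 1.11 within 1 kb (8 pairs), 1.15 at 1 to 5 kb (27 pairs) and 0.935 on different chromosomes for often-open peaks, against 1.61 (23 pairs), 1.65 (129 pairs) and 0.997 for the 1 to 10% peaks. The sets differ in openness, which limits how far above expectation a pair can go, and that part was not tested.

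Often-open peaks were found on every chromosome. They made up 5.23 ± 0.812% of a chromosome's peaks (SD, n = 25). The share was highest on chromosome 3, with 189 of 2604 peaks (7.26%, interval 6.29 to 8.32%), followed by chromosome 25 with 6.52%, and lowest on chromosome 4, with 69 of 1696 (4.07%, 3.18 to 5.12%). Per Mb between the first and the last peak there were 2.00 ± 0.437, from 0.885 on chromosome 4 to 3.02 on chromosome 3. Chromosome 4 was also lowest in 1 to 10% peaks per Mb, with 11.4 against a mean of 19.9. Its peaks lay mostly before the midpoint of the span, where 67 of 1509 were often open (4.44%), against 2 of 187 beyond it (1.07%, interval 0.130 to 3.81%). The outer 10% of a chromosome's span at each end together held 22.7% of often-open peaks and 21.2% of the 1 to 10% peaks, higher for the often-open peaks on 15 of 25 chromosomes.

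**Figure D5:**
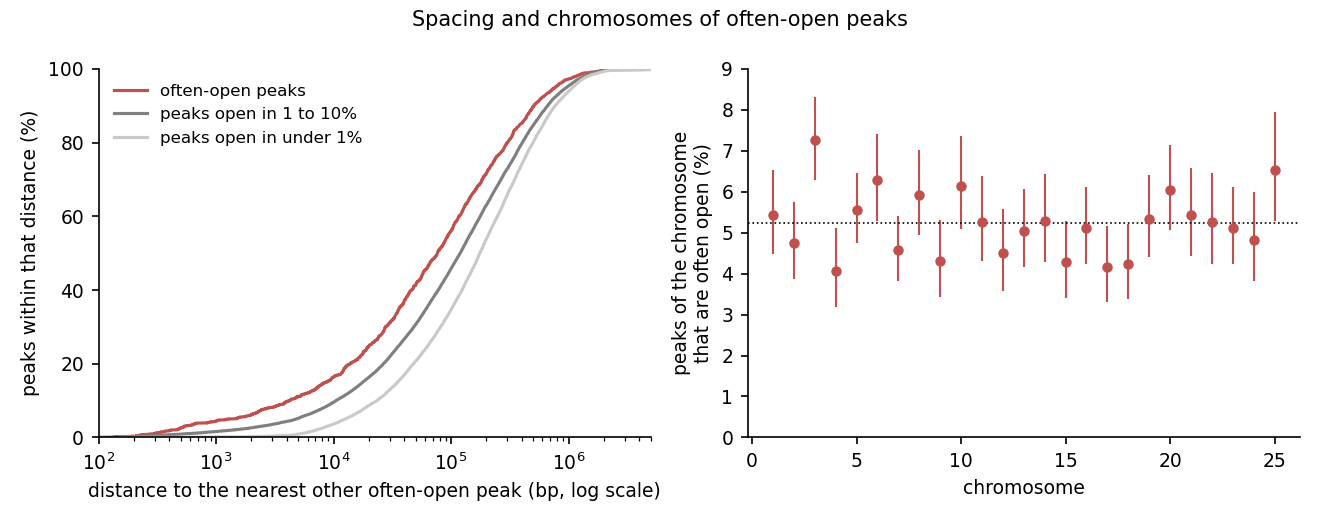
Left, cumulative share of peaks (%, vertical axis) by distance to the nearest other often-open peak (bp, log scale), for often-open peaks and for peaks open in 1 to 10% and in under 1% of nuclei. Right, share of each chromosome's peaks that are often open (%), with exact 95% intervals and the mean of 5.23% as a dotted line. The curve of often-open peaks lies above the others, with 16.5% against 9.57% at 10 kb.

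The often-open peaks were wide. Their median width was 665 bp, with quartiles of 541.5 and 833 bp and a range of 320 to 1877 bp, against a median of 400 bp for peaks open in 1 to 10% and 236 bp for the rest. Of peaks 200 to 300 bp wide 0% were often open, and the share was 0.921% at 300 to 400 bp, 4.27% at 400 to 500 bp, 14.3% at 500 to 600 bp, 25.3% at 600 to 800 bp, 44.1% at 800 to 1000 bp and 71.4% above. A wider peak offers more room for a cut, and how peak edges were set can move with the number of calls, so width and openness cannot be told apart here. Per kb of peak a nucleus had 0.226 open calls in the often-open set and 0.0732 in the 1 to 10% peaks. Within each width class from 300 bp upward the often-open peaks had the lower median index over runs and over clusters, for example 0.00579 against 0.0289 over runs and 0.204 against 0.572 over clusters at 500 to 600 bp.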

How the data were processed

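Nuclei of isolated nonCMs were prepared by the authors following a droplet ATAC protocol of 10X Genomics. Per the study's methods, reads went through cellranger-atac, the time points were merged, SnapATAC was used downstream, and low-quality nuclei, cardiomyocytes and clusters of putative doublets were removed. No versions are given in the sources used here. The deposited matrix, described as raw counts, holds only 0 and 1, so its values are open calls and not counts of reads. The labels name the danRer11 build. Peak width is end minus start. The rows carry 2731 distinct barcodes, and 6 occur in 2 rows. No doublet caller was run, and 0 columns were left unused.

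The members and lists were chosen with earlier results of these data known. Nuclei and peaks are not replicates, so spread is given over chromosomes and no p-value was computed. Chromosomes share the same nuclei and are not replicates either. Their SD and the counts of chromosomes leave out variation between nuclei, libraries and fish. The index is the Pearson chi-square of a peak's calls over parts, weighted by calls outside the often-open set, less its degrees of freedom, divided by the peak's calls. Clustering used term frequency scaled to 10000 and inverse document frequency, singular value decomposition without component 1 (correlation with log depth 0.950 in size), 15 components, 15 neighbours and Leiden at resolution 1 (scikit-learn 1.9.0, igraph 0.11.9, leidenalg 0.10.2, scipy 1.17.1, Python 3.11.15). The index, weighted there by all open calls, and the clustering were tested on simulated nuclei. The distance to the nearest peak was tested on a few made-up peaks. The depth classes, the thinning and the pairs of peaks were not tested in this way. Named peaks are the extremes of each measure: the 10 most open, the 5 highest and 3 lowest in each index (clusters: even-numbered chromosomes), the 3 highest and 3 lowest in depth ratio, the closest pair, the longest stretch and the most isolated peak. At the limit 3 peaks on each side were named, and other peaks inside it had the same count. The peak farthest from another often-open peak was added after its values were seen. Alternatives were other limits, deeper nuclei, left-out runs, other weights, a depth model, depth over all peaks, other clusters and distances, and peaks of 500 to 800 bp.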

Additional observations from a re-analysis of the deposited data

How the results depend on the processing

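Of 99 alternative values, 47 moved by less than the spread (counts within 1.5 times, other values within 1 SD over the 25 chromosomes) and 52 by more. The run index was lower in often-open than in 1 to 10% peaks under 13 of 13 settings, the cluster index under 8 of 8 and the depth ratio under 11 of 11, and the share with an often-open peak within 10 kb was higher under 6 of 6. The direction of the median distance to any peak turned: it was 4798 bp for often-open against 4692 bp for 1 to 10% peaks as reported, but 4582 against 4752 bp at a limit of 5% and 5439 against 6821 bp to peaks open in at least 1%, lower under 2 of 6 settings.

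A limit of 5% gave 7355 often-open peaks with 55.0% of calls, a run index of 0.0138 against 0.0343 for the peaks between 1% and that limit, a depth ratio of 5.17 for that lower set, 31.5% and 22.04% with an often-open peak within 10 kb, a median width of 574 bp and a chromosome mean of 14.6%. A limit of 20% gave 489 peaks with 9.36% of calls, run indices of 0.00638 and 0.0244, depth ratios of 2.29 and 4.06, shares within 10 kb of 4.09% and 1.95%, a width of 781 bp and a chromosome mean of 0.966%. Nuclei with at least 1000 open peaks gave 4128 often-open peaks with 38.9% of calls. With runs weighted by nuclei the run indices were 0.0242 and 0.0668, with runs weighted by all open calls the often-open value was 0.00632, and with nuclei thinned to 500 calls the indices were 0.00540 and 0.0156. Leaving out each run in turn gave 2414 to 3240 often-open peaks, 29.1 to 34.3% of calls, run indices of 0.00397 to 0.0111 for often-open peaks and 0.00658 to 0.0343 for the others. With depth over all peaks the ratio for often-open peaks was 2.93. Within runs 1 to 4 it was 2.83, 2.30, 2.25 and 2.31, and for 1 to 10% peaks within run 4 it was 3.38. Without clusters 1 and 5 it was 3.39 for often-open peaks. Among 1 to 10% peaks of 500 to 800 bp the depth ratio was 4.15, the share within 10 kb 6.35% and the cluster index 0.526. Resolution 0.5 gave a cluster index of 0.523 for 1 to 10% peaks. Clusters weighted by all open calls gave 0.144 for often-open peaks, by nuclei 0.0780 and 0.7997, and by calls in often-open peaks of odd-numbered chromosomes 0.0574 and 0.683. With peaks open in at least 1% as the denominator the chromosome mean was 9.03%. The thinned nuclei, the width class, the odd-chromosome depth and the left-out clusters were chosen after seeing the data. So were the weights by all calls and by often-open calls, and the cluster weights by nuclei. The run index with expected calls from a depth model was also a later choice. It gave 0.00762 for often-open and 0.0297 for 1 to 10% peaks.

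No paired analysis was possible because each time point had a single library, and no nucleus was mapped to one. Gene starts, base composition, motifs and gene lists were not run, since no genome or gene positions of the danRer11 build were at hand. Depth limits single nuclei: a peak not called open in a nucleus is not shown to be closed there, and all intervals cover counting error only.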
